A study of Mus musculus with 6 samples.

Results

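The 45 genes described here encode the machinery that copies DNA in S phase, from the licensing of origins through the replication fork and nucleotide supply to the assembly of new chromatin. They were taken by gene symbol from a list of replication genes and make up 45 of the 36172 genes in the deposited table. RNA came from organoids, that is, 3-dimensional cultures of epithelial cells, grown from small intestinal tumors of C57BL/6 mice aged 15 to 20 weeks. All 6 libraries carry the Apc truncation at codon 716 (Apc Δ716) with loss of the wild-type Apc allele, and they differ in Trp53, the gene for p53: Trp53 +/+, flox/flox or R270H/R270H (called R270H from here on), with 2 libraries each. The floxed allele is an LSL-R270H allele that has not been recombined and acts as a null, and villin-CreER with tamoxifen, which works in the intestinal epithelium, turns it into an allele that makes the missense protein p53 R270H. The comparisons therefore ask how replication genes are expressed without p53 and with missense p53, each against wild-type p53 and against the other, on an Apc-mutant background that every group shares.

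Replication is licensed in G1, when the origin recognition complex, Cdc6 and Cdt1 load the MCM helicase onto DNA, and it starts in S phase when Cdc45 and the GINS complex turn the loaded helicase into an active one. Polymerase alpha with primase then lays primers, polymerases delta and epsilon extend them on the PCNA clamp, and Fen1 and Lig1 join the fragments of the lagging strand. Many of these genes are transcribed at the border of G1 and S phase under E2F factors, which the pocket proteins hold back, and p53 can lower such genes through the CDK inhibitor p21, encoded by Cdkn1a. The intestinal crypt and the tumors that arise in it after loss of Apc divide rapidly.

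The table holds rpkm, a read level scaled for gene length and for the number of reads mapped in a library, with no value below 1. In 8 to 23 short RNA genes a library, only 66.7 to 78.3% of the values lay within 0.05 of whole reads, so the depth of the libraries is unknown. Trp53 itself stood at 75.9 and 74.3 rpkm in the Trp53 +/+ libraries, 1.73 and 2.48 in the Trp53 flox/flox libraries and 72.8 and 82.7 in the Trp53 R270H/R270H libraries, as the labels of all 6 have it. A limma fit to log2(rpkm + 1) of all 6 libraries compared the genotypes over the 10042 genes that reached 4 rpkm in 1 library or more, and a gene is called where its p-value, adjusted over these genes, was under 0.05. All 45 members passed in every library, since their lowest value was 4.13 rpkm. The spread between libraries was uneven: the median s.d. of the members on the log2 scale came to 0.0379 for Trp53 +/+, 0.252 for Trp53 flox/flox and 0.0587 for R270H organoids, close to the 0.0463, 0.247 and 0.0621 of all genes tested. With 2 libraries a genotype an exact test of 1 gene cannot go below p=0.333, so the tests rest on a spread shared across genes and genotypes. No source used here says whether the 2 libraries of a genotype came from separate mice or cultures, so the p-values measure only the spread between these libraries, which may be technical. In these bulk samples more cells in S phase and more RNA per cell cannot be told apart. The paper reports that proliferation, measured by EdU labeling, did not differ significantly among organoids of these genotypes. That measure is separate from these libraries, and how it relates to the levels here was not tested.

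The members were well expressed, with a median level of 29.4 rpkm over the 6 libraries against 13.5 for all genes tested. Only 3 members averaged under 10 rpkm and 14 averaged over 50, from Gins3 at 4.13 to 6.25 rpkm up to Pcna, the sliding clamp, at 239 to 410. Their summed level was 1652 and 1626 rpkm in the Trp53 +/+ libraries, 2657 and 2124 in the Trp53 flox/flox libraries and 1711 and 1789 in the Trp53 R270H/R270H libraries. Both Trp53 flox/flox libraries thus stood above the other 4, and replicate 1 well above replicate 2. As a share of the summed rpkm of all genes tested, the members made up 0.429% and 0.43% in Trp53 +/+, 0.58% and 0.55% in Trp53 flox/flox and 0.489% and 0.494% in R270H organoids. On that scale the Trp53 flox/flox libraries lie closer together and the Trp53 R270H/R270H libraries further above Trp53 +/+.

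**Figure D1:**
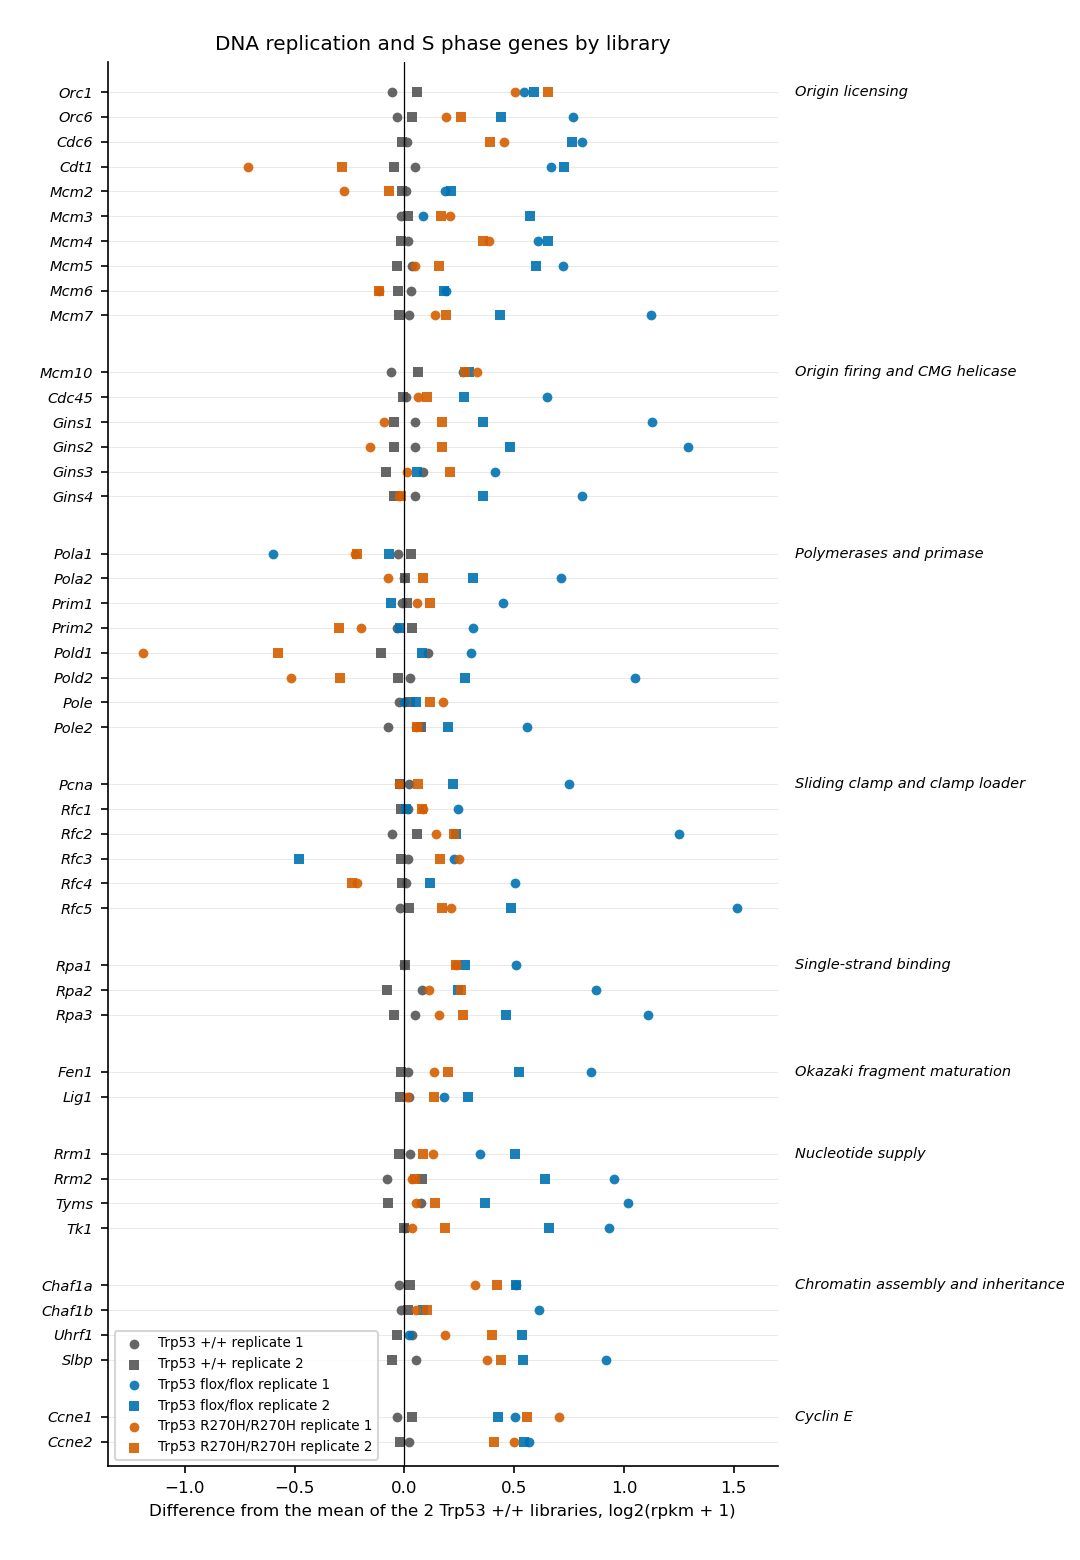
Difference of each member from the mean of the 2 Trp53 +/+ libraries, in log2(rpkm + 1) (x axis), with members grouped by role (y axis), circles for replicate 1 and squares for replicate 2 of each genotype. The blue Trp53 flox/flox points lie mostly to the right, with a median of 0.61 in replicate 1 and 0.36 in replicate 2, and the orange Trp53 R270H/R270H points lie near 0, with medians of 0.06 and 0.16.

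Without p53, a minority of the replication genes passed the test, all of them upward. Of the 45 members, 10 (22.2%) were called higher in Trp53 flox/flox organoids than in Trp53 +/+ and 0 lower, where limma called 4.38% of all genes tested higher and 6.9% lower; at an unadjusted p under 0.05 the members gave 25 higher and 0 lower. The fold change was positive for 43 members and its median was 0.51 on the log2 scale, against -0.02 for all genes tested. Both Trp53 flox/flox libraries exceeded both Trp53 +/+ libraries in 36 members (80.0%, against 30.6% of all genes tested), and they exceeded all other 4 libraries in 30 members (66.7%, against 19.9% of all genes). Replicate 1 of this genotype held the highest value of 31 members and replicate 2 that of 8.

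With R270H few members passed the test against Trp53 +/+. Limma called 2 members (4.44%) higher and 0 lower, where 5.86% of all genes were called higher and 6.36% lower, and at an unadjusted p under 0.05 it gave 8 higher and 2 lower. The median log2 fold change of the members was 0.11 against 0.03 for all genes, and both libraries lay above both Trp53 +/+ libraries in 27 members (60%, against 44.2% of all genes tested) and below them in 8. The share called was near the background. Against Trp53 flox/flox organoids, whose libraries also enter the comparison with Trp53 +/+, 8 members (17.8%) were lower and 0 higher, where 11% of all genes were called lower and 13.6% higher, with 23 lower and 0 higher at an unadjusted p under 0.05. The median log2 fold change of that comparison was -0.37 against 0.03 for all genes, and 32 members (71.1%, against 31.2% of all genes) were lower in each R270H library than in each Trp53 flox/flox library. With the libraries scaled to equal summed rpkm, the members' median became -0.14 and that of all genes 0.25. The members thus lay 0.39 below all genes in place of 0.40. Of the 8 calls, 5 were kept (Cdt1, Pold1, Pold2, Rrm2 and Tk1), where 7.13% of all genes were called lower. Of all genes called in that comparison, 55.2% were higher as deposited and 73.7% after that scaling, and of those called between R270H and Trp53 +/+ organoids 47.9% and 60.9%.

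The calls moved with the way the spread was estimated, which was widest between the Trp53 flox/flox libraries. When only the 2 genotypes compared were fitted, limma called 0 of the 45 members in either comparison with Trp53 flox/flox. At an unadjusted p under 0.05, 18 were higher than in Trp53 +/+ and 10 were lower with R270H. Of all genes tested, 0.0896% were called higher and 0.378% lower without p53. In R270H against Trp53 flox/flox organoids 2.56% were called higher and 1.2% lower. Between R270H and Trp53 +/+ organoids, 17 members were called higher and 6 lower, beside 31.2% and 25.7% of all genes tested. The members' median fold changes were the same in both fits.

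Origin licensing was the largest role group, with 4 of its 10 members (40%) called higher in Trp53 flox/flox organoids than in Trp53 +/+. Of all genes tested, 4.38% were called higher there. All 10 had both libraries above, against 30.6% of all genes, and the median log2 fold change was 0.62. The share called was larger in the smaller group of nucleotide supply (50%). Cdc6, which brings the MCM helicase to the origin, stood at 8.86 and 8.69 rpkm in the Trp53 +/+, 16.1 and 15.6 in the Trp53 flox/flox and 12.4 and 11.8 in the Trp53 R270H/R270H libraries. The 3 genotypes did not overlap, with R270H in the middle. Cdc6 was 1.81-fold higher without p53 (log2 fold change 0.79, s.e. 0.10, adjusted p=0.0166), lay 0.42 above Trp53 +/+ on the log2 scale in R270H organoids without being called (adjusted p=0.0513), and was lower in R270H than in Trp53 flox/flox organoids by a call that only just passed (-0.36, adjusted p=0.04995). Orc1, the largest subunit of the origin recognition complex, was low in Trp53 +/+ organoids (5.16 and 5.68 rpkm) and higher in Trp53 flox/flox (8.38 and 8.66) and Trp53 R270H/R270H organoids (8.09 and 9.10). It was called in both genotypes against Trp53 +/+ (log2 fold changes 0.57, adjusted p=0.0426, and 0.58, adjusted p=0.0397), and the mutant genotypes overlapped (difference 0.01, 95% interval -0.29 to 0.31). Orc6, another subunit of that complex, read 23.1 to 24.2, 32.5 to 41.0 and 27.1 to 28.5 rpkm in the same order and missed the threshold.

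The 6 MCM subunits form a ring with 1 copy of each. Mcm4 stood at 56.1 and 54.8 rpkm in Trp53 +/+, 85.1 and 88.0 in Trp53 flox/flox and 72.6 and 71.3 in R270H libraries, and Mcm5 at 52.3 and 49.8, 84.8 and 77.9, and 52.8 and 57.0. Both were called higher without p53 (0.63, adjusted p=0.0221, and 0.66, adjusted p=0.0264 on the log2 scale). In the R270H organoids the levels of Mcm4 lay between those of the other genotypes and those of Mcm5 just above Trp53 +/+, and neither was called there. Mcm5 alone of the 6 was called lower in R270H than in Trp53 flox/flox organoids (-0.56, adjusted p=0.0223). Mcm2, Mcm3 and Mcm6 had small differences without p53 (0.20, 0.33 and 0.19, none called). Mcm7 read 112 and 108 rpkm in Trp53 +/+ libraries but 241 and 150 in the Trp53 flox/flox libraries, so its log2 fold change of 0.78 had an interval of 0.19 to 1.37 and was not called. Without p53 the 6 subunits thus ran from 0.19 to 0.78 on the log2 scale, and whether they differed from each other was not tested.

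Cdt1, the loading factor that geminin inhibits, differed most between the mutant genotypes. It stood at 14.1 and 13.2 rpkm in the Trp53 +/+, 22.3 and 23.2 in the Trp53 flox/flox and 7.93 and 11.0 in the Trp53 R270H/R270H libraries. No groups overlapped, and the genotypes lay on opposite sides of Trp53 +/+. The difference between R270H and Trp53 flox/flox organoids, -1.195 on the log2 scale (95% interval -1.61 to -0.78), had the smallest adjusted p of the members in that comparison (0.0119). Neither genotype was called against Trp53 +/+ in the fit of all 6 libraries (0.70, adjusted p=0.057, and -0.50, adjusted p=0.111).

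Promoter sequences were taken from RefSeq (GRCm38.p6), from 250 bases before to 50 bases after each start, and were found for 37 of the 45 members, with 43 promoters in all. Matches were counted on either strand to the E2F-type motifs TTTCCCGC, TTTGGCGC, TTTGCCGC and TTTCGCGC, which can overlap each other. Such a motif was in 14 of the 43 member promoters (32.6%) and in 744 of all 32851 promoters (2.26%). CCAAT was in 60.5% against 37.4%, GGGCGG in 74.4% against 35.7%, and the CHR-type motifs TTTGAA or TTTAAA in 23.3% against 27.6%. Of the 12 called members with a promoter, 5 held an E2F-type motif, and the 4 with the smallest adjusted p in any comparison are shown around the match because the E2F-type motif, although most member promoters lacked it, had a larger share among them than among all promoters. Capitals mark the match, read 5′ to 3′ on the gene's strand, and bases are counted from the start, the base before it being -1. The Cdt1 stretch, bases 21 to 50, is at chr8:122568035-122568064 (plus strand). The Cdc6 stretch, bases -160 to -1, is at chr11:98907991-98908150 (plus strand). The Mcm5 stretch, bases -160 to -1, is at chr8:75109349-75109508 (plus strand) and holds 2 overlapping matches, TTTCGCGC and, on the other strand, TTTGGCGC. The Pold1 stretch, bases 21 to 50, is at chr7:44548766-44548795 (minus strand).
Cdt1: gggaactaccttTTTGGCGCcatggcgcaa
Cdc6: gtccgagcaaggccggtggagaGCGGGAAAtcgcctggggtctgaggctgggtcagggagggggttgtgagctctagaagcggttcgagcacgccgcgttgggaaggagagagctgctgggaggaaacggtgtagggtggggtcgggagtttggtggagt
Mcm5: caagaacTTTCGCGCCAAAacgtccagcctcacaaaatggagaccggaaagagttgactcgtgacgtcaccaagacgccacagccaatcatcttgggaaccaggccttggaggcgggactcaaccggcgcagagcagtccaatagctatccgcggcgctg
Pold1: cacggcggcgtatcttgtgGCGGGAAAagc
A match describes these letters in this window and no more. All 4 genes shown were called lower in R270H than in Trp53 flox/flox organoids, and Cdc6 and Mcm5 were also called higher in the latter than in Trp53 +/+.

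Of the 6 factors that turn the loaded helicase into an active one, limma called 0 in each comparison, although 5 were higher without p53 at an unadjusted p under 0.05. Gins2, a GINS subunit, read 25.2 and 23.5 rpkm in Trp53 +/+, 61.0 and 34.3 in Trp53 flox/flox and 21.7 and 27.5 in R270H libraries. Both Trp53 flox/flox libraries were high, replicate 1 far more than replicate 2, and the log2 fold change of 0.89 without p53 had an interval of 0.16 to 1.61 (adjusted p=0.101). Gins1 and Gins4 followed the same order with 0.74 and 0.58. Cdc45, the partner of MCM and GINS in the helicase, was 0.46 higher. Gins3 was the lowest of the members, and its groups overlapped. Mcm10, which helps to activate the helicase, had another order: its levels in Trp53 flox/flox (16.6 and 17.0 rpkm) and R270H organoids (17.4 and 16.7) overlapped, and both genotypes lay above the 13.03 and 14.3 rpkm of Trp53 +/+ organoids without being called.

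The polymerase and primase genes had the smallest median difference of the role groups without p53, 0.19 on the log2 scale, and held 2 of the 8 members called lower in R270H than in Trp53 flox/flox organoids. Limma called 0 of these 8 genes against Trp53 +/+ in either genotype (1 higher without p53 and 1 lower with R270H at an unadjusted p under 0.05). Pold1, the catalytic subunit of polymerase delta, stood at 17.8 and 15.2 rpkm in the Trp53 +/+, 20.5 and 17.4 in the Trp53 flox/flox and 6.64 and 10.7 in the Trp53 R270H/R270H libraries. The R270H libraries were below all others while the other 2 genotypes overlapped, and the difference from Trp53 flox/flox organoids was called (log2 fold change -1.08, adjusted p=0.0307); that from Trp53 +/+ was -0.88 (95% interval -1.47 to -0.30, adjusted p=0.0683). Pold2, its accessory subunit, read 44.5 and 42.8 rpkm, then 91.3 and 53, then 30.2 and 35.5. No groups overlapped, with Trp53 +/+ between the others, and R270H was called below Trp53 flox/flox (-1.07, adjusted p=0.0417). That difference was -0.68 without Trp53 flox/flox replicate 1 and -1.45 without replicate 2. Of the subunits of polymerase delta that are not members, Pold4 was called lower with R270H (9.13 and 10.9 rpkm against 26.7 and 29.0 in Trp53 +/+; -1.39, adjusted p=0.010) but, unlike Pold1 and Pold2, its Trp53 flox/flox libraries also lay below Trp53 +/+ (18.8 and 14.9 rpkm; -0.70, adjusted p=0.0512). Pold3, looked up after these values were seen, was at 19.9 and 20.3 against 21.4 and 21.6 rpkm. Of the catalytic subunits of the other polymerases, Pole was 0.15 and Pola1 -0.22 from Trp53 +/+ on the log2 scale with R270H. Neither was called, and nor were Pold1 and Pold2 in that comparison. For Pola1, too, both R270H libraries lay below both Trp53 +/+ libraries. Differences between these genes were not tested. Pola1 was the only member with both Trp53 +/+ libraries above the other 4 (14.47 and 15.1 rpkm).

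Cdt1, Pold1 and Pold2 had the most GC-rich transcripts of the members, at 58.8, 60.7 and 58.7%, against a median of 49.3%. Of all genes tested, 963 had a GC content of at least 58%, and in R270H against Trp53 flox/flox organoids, the comparison in which the 3 members were called, their median log2 fold change was -0.45 with 30.9% called lower, against the 11% of all genes. Their median difference from Trp53 +/+ was 0.25 and 0.20 in the Trp53 flox/flox libraries, -0.33 in R270H replicate 1 and -0.07 in replicate 2, with 9.87% called lower with R270H. Of these genes, 9.97% had a log2 fold change of R270H against Trp53 +/+ at or below that of Pold1, 27.6% at or below that of Cdt1 and 33.1% at or below that of Pold2. With a length and GC trend removed from each library, Pold1 was called lower in R270H than in Trp53 +/+ (-0.74, adjusted p=0.0375), Cdt1 was not (-0.37, adjusted p=0.0627), and Pold2 was not called in either comparison (-0.21 and, against Trp53 flox/flox, -0.60). Cdt1 and Pold1 kept their calls against Trp53 flox/flox in that fit (-0.88 and -0.80). Without R270H replicate 1, the differences from Trp53 +/+ were -0.58 for Pold1, -0.28 for Cdt1 and -0.29 for Pold2.

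The sliding clamp and its loader gave 0 calls by limma in all 3 comparisons, with 1 gene higher without p53 at an unadjusted p under 0.05. Pcna, the clamp and the most abundant member, read 247 and 240 rpkm in Trp53 +/+, 410 and 284 in Trp53 flox/flox and 239 and 254 in R270H libraries. Its log2 fold change without p53 was 0.49 with an interval that reached just below 0, and the Trp53 flox/flox libraries were far apart. Among the 5 loader subunits, Rfc5 had the largest estimate of any member, 1.00 (73.3 and 35.4 against 24.7 and 25.4 rpkm, adjusted p=0.106), whereas Rfc1, the large subunit, was 0.13 and Rfc3 -0.13. The Trp53 flox/flox libraries lay on either side of Trp53 +/+ for Rfc3 (27.9 and 16.7 against 24.0 and 23.4 rpkm). For Rpa1, Rpa2 and Rpa3, the subunits of the complex that coats single-stranded DNA, both Trp53 flox/flox and both R270H libraries lay above both Trp53 +/+ libraries, with log2 fold changes of 0.39, 0.56 and 0.79 without p53 and 0.24, 0.19 and 0.21 with R270H. Limma called 0 of these 6 differences (2 at an unadjusted p under 0.05, both without p53).

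Of the 2 Okazaki fragment genes 1 was called higher without p53, as were 2 of the 4 nucleotide genes, and the same 3 genes were called lower in R270H than in Trp53 flox/flox organoids. Fen1, the nuclease that trims the flaps of Okazaki fragments, stood at 26.4 and 25.8 rpkm in Trp53 +/+, 47.9 and 38.0 in Trp53 flox/flox and 28.7 and 30.2 in R270H libraries (0.69 without p53, adjusted p=0.0389; R270H against Trp53 flox/flox -0.52, adjusted p=0.0472). Lig1, the ligase of the same step, was 0.24 higher without p53 and was not called. Rrm2, the S phase subunit of ribonucleotide reductase, read 64.1 and 71.7, then 132 and 106, then 69.5 and 70.2 rpkm in the same order. Tk1, the thymidine kinase of the salvage pathway, read 42.2 and 42.1, then 81.3 and 67.0, then 43.2 and 48.0 rpkm. Both genes were far higher in the 2 Trp53 flox/flox libraries than in any other: Rrm2 was 1.76-fold and Tk1 1.76-fold above Trp53 +/+ (log2 fold changes 0.80, adjusted p=0.0319, and 0.79, adjusted p=0.0282). With R270H, Rrm2 fell within the range of Trp53 +/+, with a difference of 0.04 (95% interval -0.31 to 0.40), Tk1 lay 0.11 above it (-0.22 to 0.44), and both were called below Trp53 flox/flox (-0.76, adjusted p=0.0225, and -0.68, adjusted p=0.0238). Rrm1, the large reductase subunit, and Tyms, thymidylate synthase, had the same order of genotypes without passing the threshold (0.42 and 0.69 without p53).

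Of the 4 genes of chromatin assembly and inheritance, 2 were called higher without p53, and limma called 0 with R270H (2 higher at an unadjusted p under 0.05). Chaf1a, the large subunit of the histone chaperone CAF-1, stood at 15.4 and 15.9 rpkm in Trp53 +/+, 22.6 and 22.7 in Trp53 flox/flox and 19.8 and 21.3 in R270H libraries. It was called without p53 (0.51, adjusted p=0.0358), and its difference of 0.37 with R270H was not (adjusted p=0.0646). Slbp, which binds the stem-loop of replication-dependent histone mRNAs, read 39.9 and 36.9, then 73.5 and 56.2, then 50 and 52.3 rpkm (0.73 without p53, adjusted p=0.0427; 0.41 with R270H, adjusted p=0.14). Neither gene was called between R270H and Trp53 flox/flox organoids, where limma called 0 of the 4 genes (0 at an unadjusted p under 0.05). Chaf1b and Uhrf1, which recognises hemimethylated DNA behind the fork, were not called in any comparison, and in Uhrf1 the Trp53 flox/flox replicates (45.9 and 66.0 rpkm) took the opposite order to that of most members.

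The 2 cyclin E genes, whose proteins drive CDK2 at the entry into S phase, had all 4 libraries of the other genotypes above both Trp53 +/+ libraries, and each was called in 1 genotype. Ccne1 read 9.23 and 9.74 rpkm in Trp53 +/+, 13.9 and 13.1 in Trp53 flox/flox and 16.1 and 14.4 in R270H libraries. It was the member with the smallest adjusted p with R270H (1.61-fold, log2 fold change 0.63, 95% interval 0.36 to 0.91, adjusted p=0.0271), and without p53 it was 0.47 with an adjusted p of 0.0549. Ccne2 stood at 4.80 and 4.65, then 7.47 and 7.34, then 7.10 and 6.59 rpkm, and the calls went the other way: it was called without p53 (0.55, adjusted p=0.0389) and not with R270H (0.45, adjusted p=0.0571). The differences between the mutant genotypes, 0.17 (-0.11 to 0.44) for Ccne1 and -0.10 (-0.38 to 0.18) for Ccne2, were not called, so neither gene was shown to differ between them. Ccne1 and Pole were the only members with both R270H libraries above the other 4 (26.5% of all genes tested had this order). Ccne1 and Orc1 were the 2 members called with R270H. With each library left out in turn, their differences from Trp53 +/+ ran from 0.56 to 0.70 and from 0.50 to 0.65. Their calls depended on which library was left out, as did the calls over all genes tested.

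**Figure D2:**
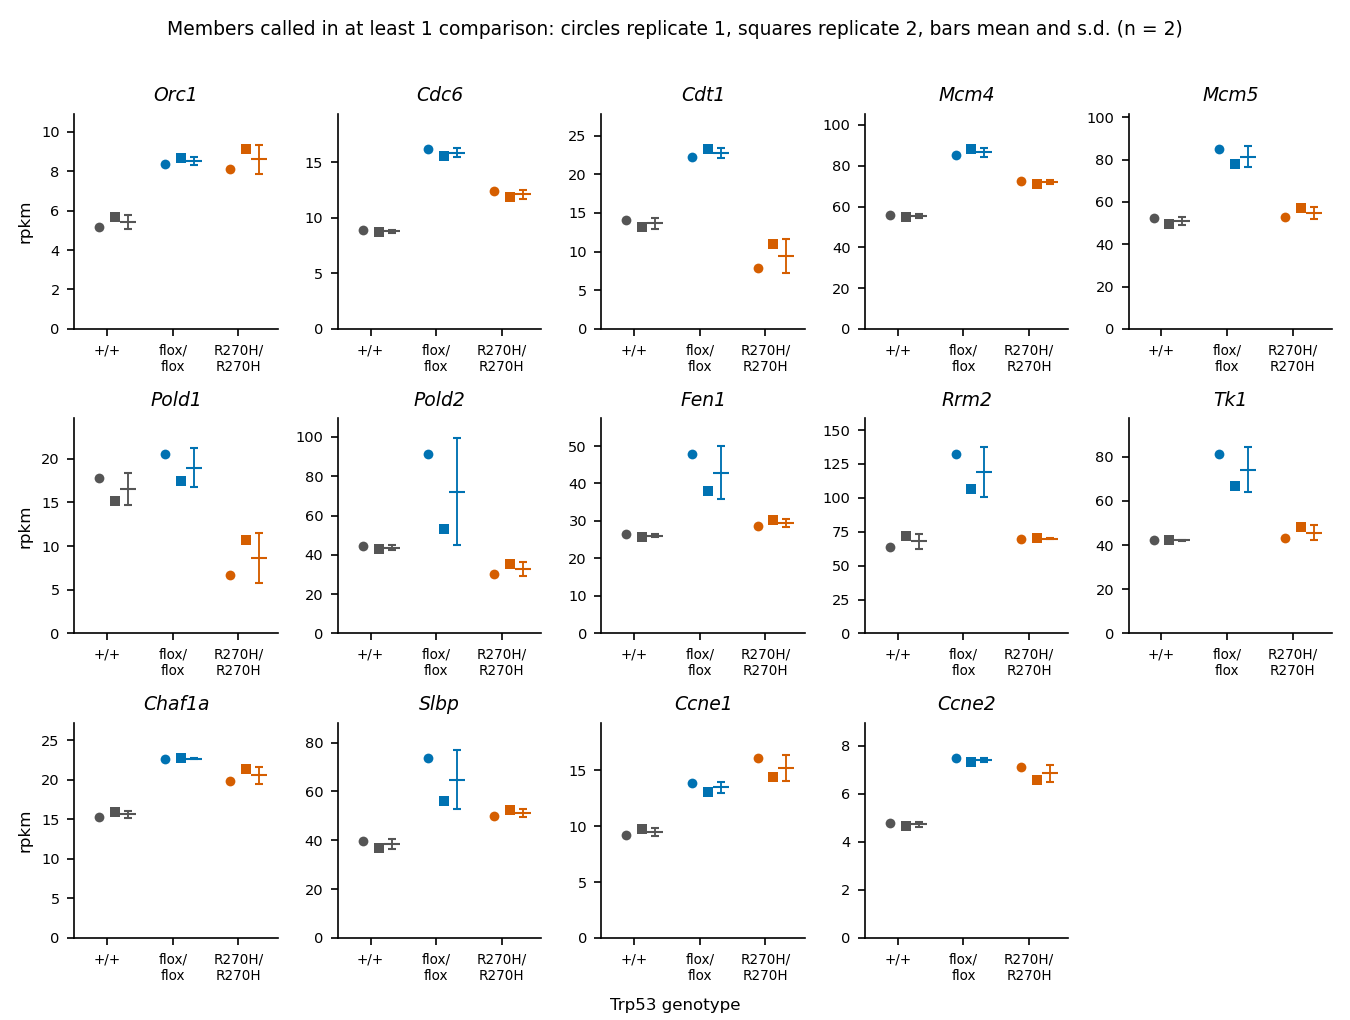
Levels in rpkm (y axes, from 0) of the 14 members called in at least 1 comparison, by Trp53 genotype (x axes), with circles for replicate 1, squares for replicate 2 and bars for mean and s.d. (n = 2). Cdc6, Mcm4 and Chaf1a step up from Trp53 +/+ through R270H to Trp53 flox/flox, Rrm2, Tk1 and Mcm5 are high in Trp53 flox/flox alone, Cdt1 and Pold2 lie on opposite sides of Trp53 +/+ in the other genotypes, and Ccne1 is highest with R270H (16.1 and 14.4).

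**Figure D3:**
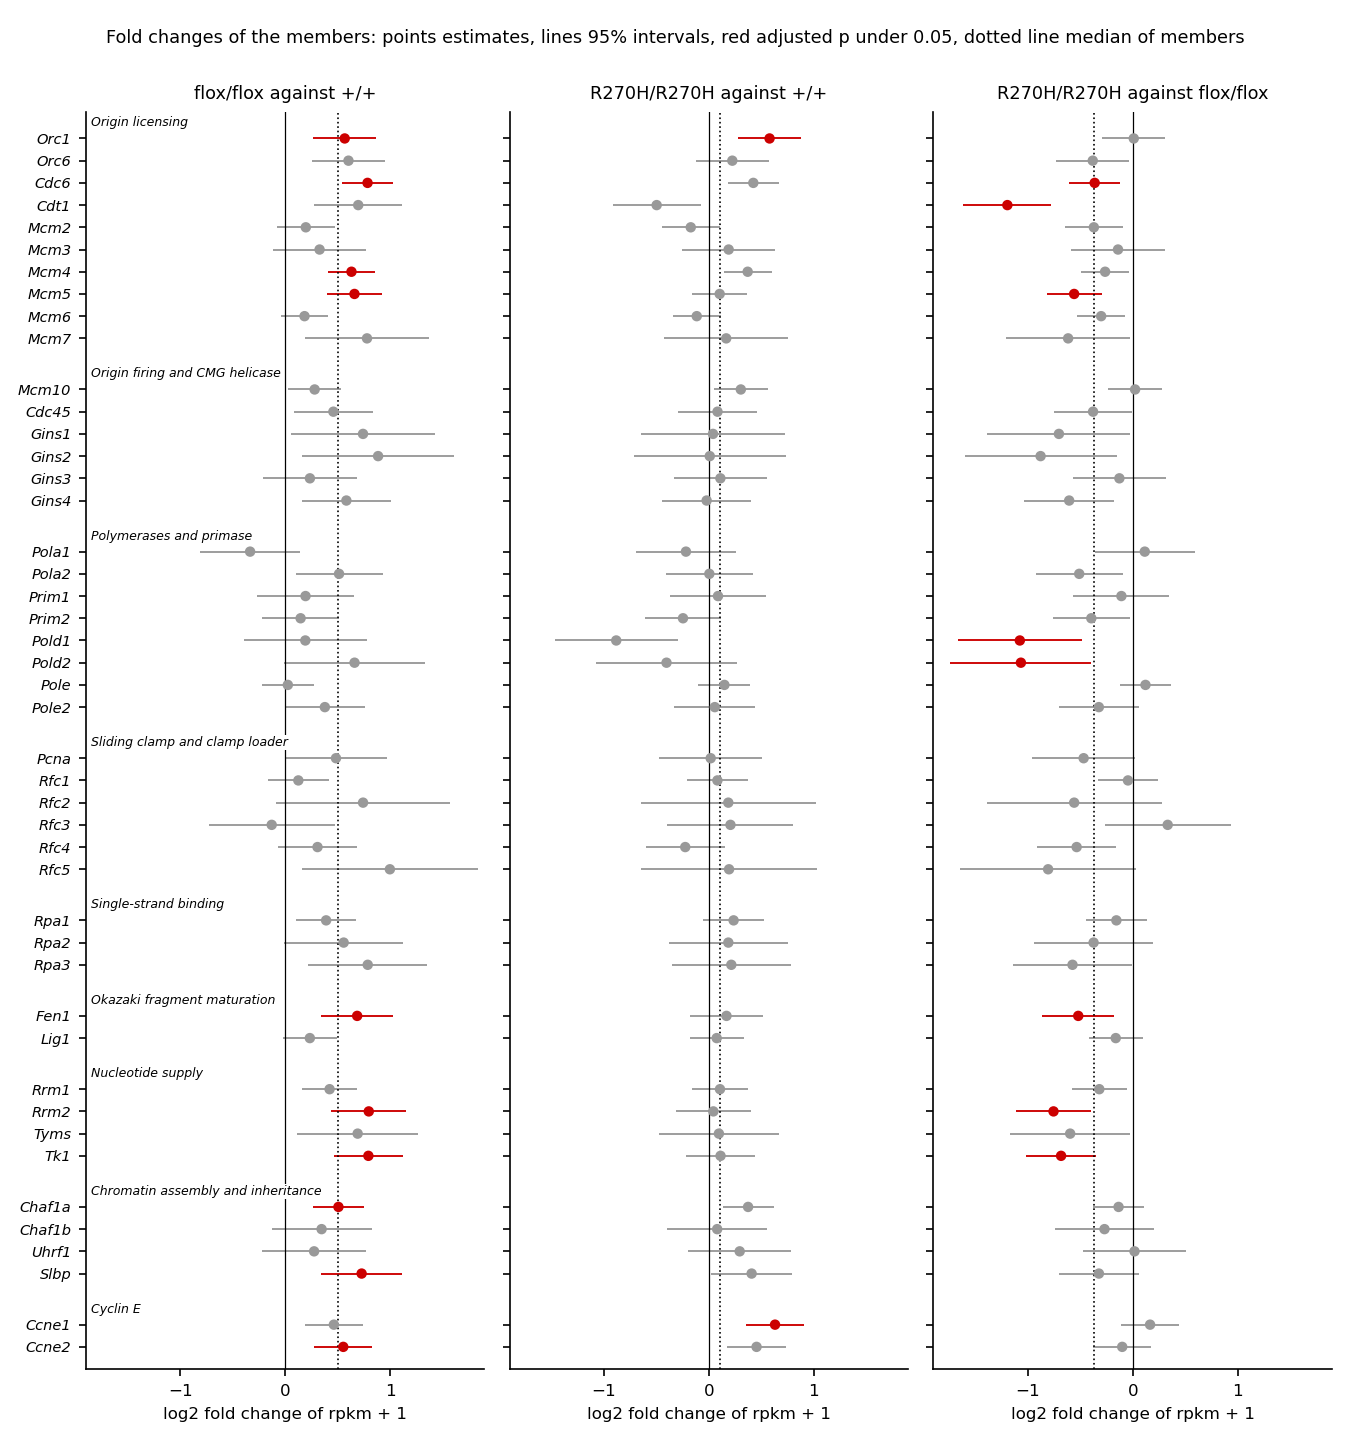
Log2 fold changes of rpkm + 1 (x axes) of the 45 members (y axis, grouped by role) with 95% intervals in 3 comparisons, in red where the adjusted p from limma was under 0.05, with a dotted line at the median of the members. The dotted line stands at 0.51 without p53, at 0.11 with R270H and at -0.37 for R270H against Trp53 flox/flox, with 10, 2 and 8 red members.

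The Trp53 flox/flox replicates differed along transcript length. Across 9968 genes the difference of replicate 1 from replicate 2 had a Spearman correlation of -0.549 with transcript length, and across the 45 members -0.541, a description over genes that share the 2 libraries. The 23 members of at most 2796 nt were 0.75 above Trp53 +/+ in replicate 1 and 0.32 in replicate 2 at the median, and the 22 longer ones 0.43 and 0.40. At the median, the gap between the replicates was thus larger in the shorter members, and the longer ones lay above Trp53 +/+ by like amounts. Single longer members still differed between replicates 1 and 2 in either direction, such as Rfc2 (1.25 and 0.24) and Uhrf1 (0.02 and 0.53). Removing a trend in length and GC content from each library raised the calls without p53 from 10 to 22 of the members. Of all genes tested, 12.3% were then called higher, in place of 4.38%. The members' median without p53 became 0.48 and that of all genes 0.06, in place of 0.51 and -0.02. The members thus lay 0.42 above all genes in place of 0.53. In that fit 15 members were lower in R270H than in Trp53 flox/flox organoids, beside 1446 of 9968 genes. The part of length in the difference of any 1 member was not tested beyond this.

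**Figure D4:**
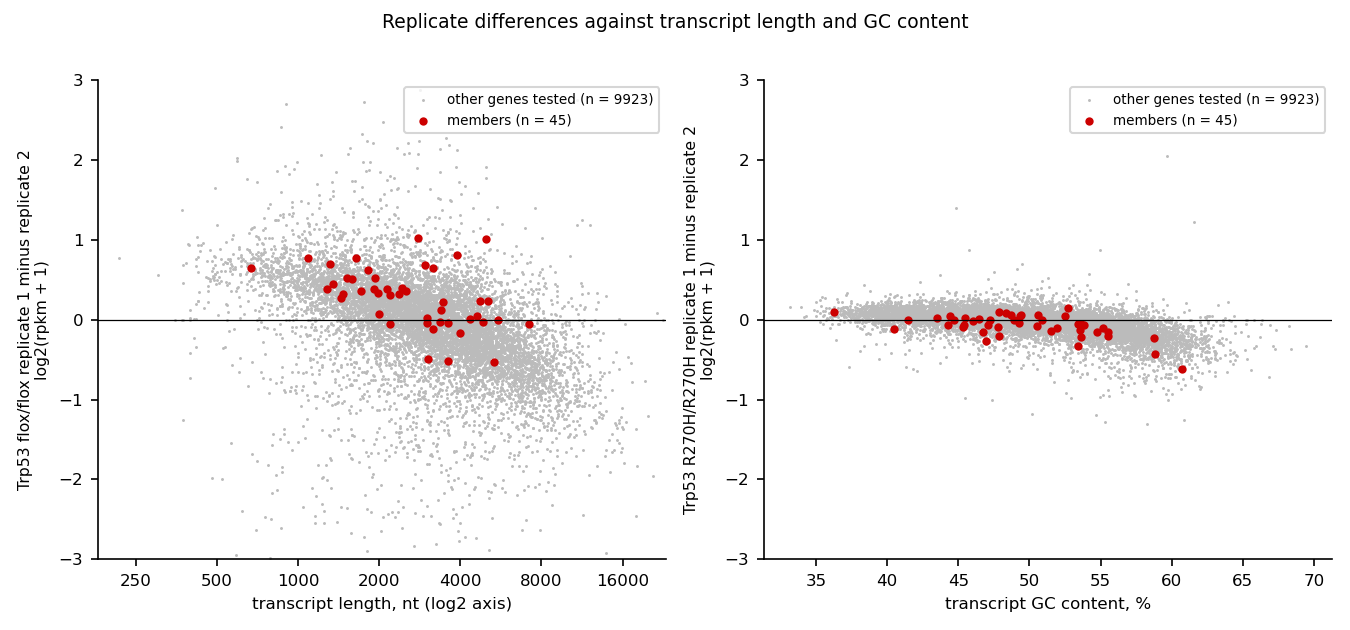
Difference between replicates 1 and 2 in log2(rpkm + 1) against transcript length for Trp53 flox/flox (left, log2 x axis) and against GC content for Trp53 R270H/R270H (right), with the 45 members in red over 9923 other genes; 27 genes lie outside the plotted range of 3 on the left. Members of at most 2796 nt have a median of 0.39 on the left, and the 3 members over 58% GC lie below 0 on the right.

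Genes on chromosome 5 read higher in Trp53 flox/flox replicate 1 than in replicate 2, by a median of 0.34 against 0.0 for all genes. Other chromosomes are not described here. Chromosome 5 holds 8 of the members: Mcm7, Rfc1, Rfc2, Rfc3, Rfc5, Pole, Tyms and Slbp. Their difference between the Trp53 flox/flox replicates had a median of 0.67, against 0.28 for the 37 members elsewhere and 0.34 for the 653 genes tested on that chromosome. Outside chromosome 5, 9 of 37 members (24.3%) were called higher without p53 with a median of 0.49, and the 8 that were lower with R270H than in Trp53 flox/flox organoids are all among the 37. Copy number was not measured, so its part in Mcm7, Rfc2 and Rfc5 was not tested.

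Of 52 other replication genes tested, 5 were called higher and 1 lower without p53 (9.62% and 1.92%) with a median of 0.24, 2 higher and 1 lower with R270H, and 3 higher and 7 lower in R270H than in Trp53 flox/flox organoids. Gmnn, geminin, the inhibitor of Cdt1, stood at 28.9 and 27.3 rpkm in Trp53 +/+, 62.1 and 44.4 in Trp53 flox/flox and 25.9 and 27.7 in R270H libraries, and was called without p53 (0.88) and between the mutant genotypes (-0.95). Rnaseh2c, a subunit of the RNase that removes RNA from DNA, showed the widest range of that list, with 5.76 and 4.75, then 24.8 and 21.3, then 1.99 and 4.09 rpkm. Donson, Asf1b and 2810417H13Rik, a PCNA-binding factor, were also called higher without p53 (0.99, 0.88 and 0.89), and Samhd1, which breaks down dNTPs, was higher with R270H (0.78).

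Of the 7 CDK inhibitor genes, limma called 0 higher and 1 lower without p53 (4 higher and 1 lower at an unadjusted p under 0.05), with 6 of the 7 estimates above 0 and a median of 0.54, and 1 higher and 1 lower with R270H. The gene called lower was Cdkn1a in both, and Cdkn1c was called higher with R270H (1.93). Cdkn1a was far lower in both genotypes, at 11.8 and 27.0 rpkm without p53 and 31.9 and 29.5 with R270H against 110 and 122 in Trp53 +/+ (adjusted p=0.0206 and 0.0353). Of 17 E2F, DP and pocket protein genes, 4 were called higher and 1 lower without p53, and 2 higher with R270H. Mybl2, an E2F target that joins the MuvB complex, rose from 16.6 and 15.7 rpkm to 37.8 and 38.9 without p53 and was 19.0 and 20.7 with R270H. E2f8, a repressor among the E2Fs, was called higher in both (0.78 and 0.81), E2f2 with R270H (0.87), E2f4 without p53 (0.58), and Rb1 fell without p53 (-1.34). Mitosis genes, for comparison, had 12 of 30 called higher without p53 (40.0%), 2 with R270H and 10 called lower in R270H than in Trp53 flox/flox organoids (33.3%), with a median of 0.51 without p53; Cdc20, Cenpa and Plk1 were among those called in both comparisons with Trp53 flox/flox.

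The libraries were epithelial: all 8 epithelial markers, Epcam and Cdh1 among them, were above the floor in every library, with summed levels of 2920 and 2864 rpkm in Trp53 +/+, 4557 and 4228 in Trp53 flox/flox and 2327 and 2506 in R270H libraries. This sum, like that of the members, was highest in Trp53 flox/flox, and its part in their levels was not tested. The 9 fibroblast markers summed to 9 rpkm, the floor, in Trp53 +/+ and Trp53 flox/flox replicate 1, to 9.525 and 9.595 in the R270H libraries and to 21.6 in Trp53 flox/flox replicate 2. Immune markers, with 1 or 2 of 7 above the floor in each library, and endothelial markers, with 0 to 2 of 5, summed to at most 21.8 and 27.7 rpkm, both in Trp53 flox/flox replicate 2, where the members were lower than in replicate 1. Markers of differentiated cells took different orders. The 5 Paneth cell markers summed to 1486 and 1215 rpkm in Trp53 +/+, 559 and 653 in Trp53 flox/flox and 698 and 717 in R270H organoids, and the 7 goblet cell markers, listed in 8 entries, to 416 and 353, 180 and 148, and 181 and 178. The 8 enterocyte markers summed to 65.1 and 70.9, 26.1 and 29.9, and 43.3 and 35.5 rpkm, and the 6 enteroendocrine markers to 16.8 and 12.9, 6 and 7.15, and 6 and 6. These 4 sums were lower in both mutant genotypes. The 5 tuft cell markers summed to 23.8 and 26.6 rpkm in Trp53 +/+, 5 and 37.5 in Trp53 flox/flox and 38.9 and 35.6 in R270H libraries. Only 0 to 2 of these 5 were above the floor in each library. The highest marker alone read 19.6 and 22.6, 1 and 33.5, and 34.9 and 31.6 rpkm, so the tuft sums follow little more than a single marker per library. The part of these cells in the levels of the members was not tested.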

How the data were processed

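Stranded poly(A) libraries, 6 in all, were made from organoid RNA and sequenced (Illumina). The authors aligned them to mm10 and deposited rpkm values from StrandNGS; its version, annotation, filters and use of strand are not given in the sources used here, nor how reads shared with pseudogenes or overlapping genes were counted. Values under 1 appear as 1, which is inferred from the table. From these values log2(rpkm + 1) was fitted with limma 3.58.1 (R 4.3.3; lmFit, eBayes with trend, two-sided), without a block, for genes that reached 4 rpkm in 1 library or more, with Benjamini-Hochberg adjustment over all genes tested in each of 3 comparisons. Fold changes on this scale understate those of low genes. The fit was tested on simulated data. Transcript length and GC content came from GENCODE M21, and positions and promoters from RefSeq GRCm38.p6, with Python 3.11.15, pandas 2.3.3 and scipy 1.17.1.

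The members and lists were chosen with earlier results of these data known. Values in every library were printed for members called in at least 1 comparison; of other lists, at most 5 called genes with the largest change in each comparison were named, and other genes only to describe a complex or an order of values. No test of the list as a whole was made. Alternatives were pseudocounts of 0.1 and 0, other filters, 3 scalings, no trend, weights by genotype, fits of 2 genotypes, the replicate block, a length and GC trend removed, members outside chromosome 5, and each library left out. The scaling to equal summed rpkm, the exchanged block, the trend removal and the exclusion of chromosome 5 were chosen after seeing the data. Replicate numbers come from the titles, and no source used here ties them to mice.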

Additional observations from a re-analysis of the deposited data

Results flagged for a closer look

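For Cdt1 and Pold2 the genotypes lay on opposite sides of Trp53 +/+: both Trp53 flox/flox libraries were above and both R270H libraries below both Trp53 +/+ libraries. The difference between R270H and Trp53 flox/flox was tested by limma and called for each, with a log2 fold change of -1.195 for Cdt1 (adjusted p=0.0119) and -1.07 for Pold2 (adjusted p=0.0417), lower in both R270H libraries. Without Trp53 flox/flox replicate 1 the difference for Pold2 was -0.68, and without replicate 2 it was -1.45. In the fit of all 6 libraries, neither gene was called against Trp53 +/+ in either genotype. When only the 2 genotypes compared were fitted, limma called both lower in R270H than in Trp53 +/+, beside 25.7% of all genes. Weights by genotype also gave both calls, beside 27.8% of all genes. With the length and GC trend removed, Cdt1 was called higher in Trp53 flox/flox than in Trp53 +/+ (0.51, limma adjusted p=0.0316), beside 12.3% of all genes. Cdt1 kept its call against Trp53 flox/flox with the length and GC trend removed (-0.88) and Pold2 did not (-0.60).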

How the results depend on the processing

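With 2 libraries a genotype, the calls depended on the spread. No member called in the fit of all 6 libraries reversed in another fit. Rfc3, not called in the fit of all 6 libraries, reversed from -0.13 to 0.22 without p53 when Trp53 flox/flox replicate 2 was left out. Members above 0 in R270H against Trp53 flox/flox went from 7 to 15 under equal summed rpkm. Fits of only the 2 genotypes compared, and weights by genotype, gave 17 and 15 members higher and 6 and 6 lower in R270H than in Trp53 +/+. Of all genes tested, 31.2% and 31.9% were higher and 25.7% and 27.8% lower there. In each comparison with Trp53 flox/flox, 0 and 0 members were called. Without p53, 0.0896% and 0.349% of all genes were called higher and 0.378% and 1.15% lower. In R270H against Trp53 flox/flox, 2.56% and 3.75% were higher and 1.2% and 1.56% lower. With the replicate block, 0 members were called higher with R270H, 0 higher without p53 and 1 lower in R270H than in Trp53 flox/flox. The shares of all genes were 2.54%, 0.707% and 4.86%. With the R270H numbers exchanged in the replicate block, 1 was higher and 1 lower with R270H, and 6 were higher without p53. Of all genes, 4.06%, 5.31% and 3.76% were called in these directions. The deviation of replicate 1 from its genotype mean was correlated between genotypes across 10042 genes. The value was 0.117 for Trp53 +/+ with Trp53 flox/flox, -0.291 for Trp53 +/+ with R270H and -0.196 for Trp53 flox/flox with R270H. Each genotype gives only 1 such deviation per gene, so these values cannot decide whether same-numbered libraries share a batch. With the length and GC trend removed, 7 members were higher and 1 lower with R270H, 22 higher without p53 and 15 lower in R270H than in Trp53 flox/flox, beside 12.2%, 11.3% and 12.3% of all genes and 1446 of 9968 genes. Scaling to equal summed rpkm left 5 lower in that comparison, beside 7.13% of all genes. The members' medians were then -0.14 there and 0.20 for R270H against Trp53 +/+, where those of all genes were 0.25 and 0.12. Against Trp53 +/+ the members thus lay 0.080 above all genes in place of 0.077. The causes were not tested.

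Leaving out each library in turn gave 0 to 17 members higher and 0 to 6 lower with R270H, with a median of 0.062 to 0.16, 0 to 38 higher and 0 to 1 lower without p53 (0.36 to 0.61), and 0 to 1 higher and 0 to 32 lower in R270H than in Trp53 flox/flox (-0.53 to -0.24). The counts of 38 and 32 came without Trp53 flox/flox replicate 2, where 31.6% of all genes were called higher and 36.9% lower without p53 and 38.5% higher and 33.8% lower in R270H than in Trp53 flox/flox. The largest counts with R270H against Trp53 +/+ came with 1 Trp53 flox/flox library left out, where such calls also rose among all genes tested. The members' median in that comparison stayed at 0.11 there, against 0.03 for all genes. Without any single Trp53 +/+ or R270H library, calls fell among the members and among all genes tested alike. Those fits therefore say little about the members in particular. A lone library is assumed to vary like the other genotypes. Other pseudocounts, filters, median-of-ratios and upper-quartile scaling and no trend kept each count within 1.5 times.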
